A study of Homo sapiens with 32 samples.

Results

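The 93 genes described here are those that were high in Ishikawa endometrial cancer cells and at least 4-fold lower in Ishikawa-S33Y cells, when both were grown with vehicle. They were chosen on the log2(CPM + 1) scale, where CPM is a gene's reads per 1000000 counted, by a vehicle mean of at least 3 in Ishikawa and a vehicle mean in Ishikawa-S33Y at least 2 lower, with 12 genes whose symbols start with HIST dropped. They are 93 of 35238 genes in the table, and all 93 passed the filter on low values (CPM above 1 in at least 2 libraries) because the rule requires a high level in Ishikawa. The 4 vehicle libraries of these lines chose the genes, so vehicle differences between the lines (28.2% of all genes tested were called lower there) are a description and are not tested. The tested differences use the 12 libraries of the same lines treated with drugs, and SNGM and HEC265. Their standard errors (SE) and p-values use the spread within all groups, which includes the 4 vehicle libraries.

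The study sequenced total RNA from 4 established human endometrial cancer lines after 24 h of treatment. Ishikawa is labelled CTNNB1-wildtype; Ishikawa-S33Y, SNGM and HEC265 are labelled CTNNB1-mutated. CTNNB1 encodes beta-catenin, the effector of canonical Wnt signalling, and S33Y replaces a serine through which the protein is normally marked for destruction. Each line received vehicle (0.1% DMSO), paclitaxel, SM08502 or both drugs (the combination), with 2 libraries in each of the 16 groups. Paclitaxel blocks cell division by binding microtubules. SM08502 is an inhibitor of CDC-like kinases, enzymes that act on splicing factors. Paclitaxel was given at 11 nM to Ishikawa, 6 nM to Ishikawa-S33Y, 11.7 nM to SNGM and 5.6 nM to HEC265, and SM08502 at 80, 85, 350.7 and 149 nM in the same order. Dose therefore cannot be told apart from the line, nor can RNA input, which was 350 ng for Ishikawa and 500 ng for the other lines. How Ishikawa-S33Y was made, and whether it is a single clone, is not given in the sources used here, so the substitution and other differences between the lines cannot be told apart. The labels say that cells were plated in duplicate and do not describe further independence, so p-values measure the spread between these samples, which may be technical.

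The TRIM49 and TRIM43 families, KHDC1L and the RFPL4 genes are switched on in the cleavage-stage embryo, where the homeobox factor DUX4 activates them, and are normally silent afterwards. ID2, ID3 and ID4 encode helix-loop-helix proteins without a DNA-binding region, which are induced by bone morphogenetic proteins (BMPs) and block other helix-loop-helix factors. HEY1 is a repressor induced by Notch, LEFTY2 is a secreted inhibitor of Nodal that is known in the endometrium, and LGR5 is a receptor for R-spondins and a classical Wnt target.

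Depth was 13.03 to 34.1 M reads (M, 1000000) in 30 libraries, and lower in replicate 2 of the combination in Ishikawa-S33Y (2.99 M) and in SNGM (1.61 M), where a gene near 1 CPM is a handful of reads. EPCAM, an epithelial marker, was present in every line, with vehicle means ± SD (n = 2) of 284 ± 21.6 CPM in Ishikawa, 229 ± 4.90 for Ishikawa-S33Y, 141 ± 16.7 for SNGM and 257 ± 0.219 for HEC265. SOX17, a marker of the endometrial lineage, had 0 reads in the SNGM vehicle libraries, which allows up to 0.0458 CPM. The leukocyte marker PTPRC had vehicle means from 0.870 to 1.996 CPM. A length score (mean log2 level of 54 long-transcript genes less the mean of 77 ribosomal protein genes) ran from -3.62 to -2.06 in Ishikawa and from -2.36 to -1.72 in Ishikawa-S33Y. CTNNB1 itself measured 335 ± 31.5 CPM in Ishikawa and 210.4 ± 4.59 in Ishikawa-S33Y (vehicle, n = 2), and the table does not separate wild-type from mutant transcripts.

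The low level in Ishikawa-S33Y was also found in the libraries that did not choose the genes. Averaged over the 3 drug treatments, 92 of the 93 genes were lower in Ishikawa-S33Y than in Ishikawa and 0 were higher, with a median log2 difference of -2.45 against -0.00 over all genes tested. Across all 17011 tested genes 35.5% were called lower in that comparison (limma, Benjamini-Hochberg adjusted p under 0.05, used for all calls here). In the separate treatments 91 genes were lower with paclitaxel (27.1% of all genes tested), 91 with SM08502 (25.2%) and 91 with the combination (29.0%). The members called lower in all 3 numbered 90. The share of all genes tested that was lower in all 3 was not counted, and it cannot exceed 25.2%. For 90 genes all 6 treated Ishikawa-S33Y libraries lay below all 6 treated Ishikawa libraries, a pattern seen in 18.2% of all genes tested; ACTA2, CNBD2 and SMIM11A overlapped. The count was 91 with the length score as a covariate. In bulk RNA, fewer expressing cells and less RNA in each cell cannot be told apart.

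Vehicle levels ranged from 7.48 to 453.6 CPM in Ishikawa, with a median of 26.3 CPM. In Ishikawa-S33Y the median was 1.89 CPM, 26 genes were under 1 CPM, and the level was 0.210% to 23.7% of that in Ishikawa, with a median of 10.6%. No gene had 0 reads in both Ishikawa-S33Y vehicle libraries. Just inside the threshold were SEPP1 (-2.03), GPR19 (-2.02) and DCLK1 (-2.02), and just outside it were BMF (-1.98), SDHAF3 (-1.97) and GREM1 (-1.97), all as vehicle differences in log2(CPM + 1).

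**Figure D1:**
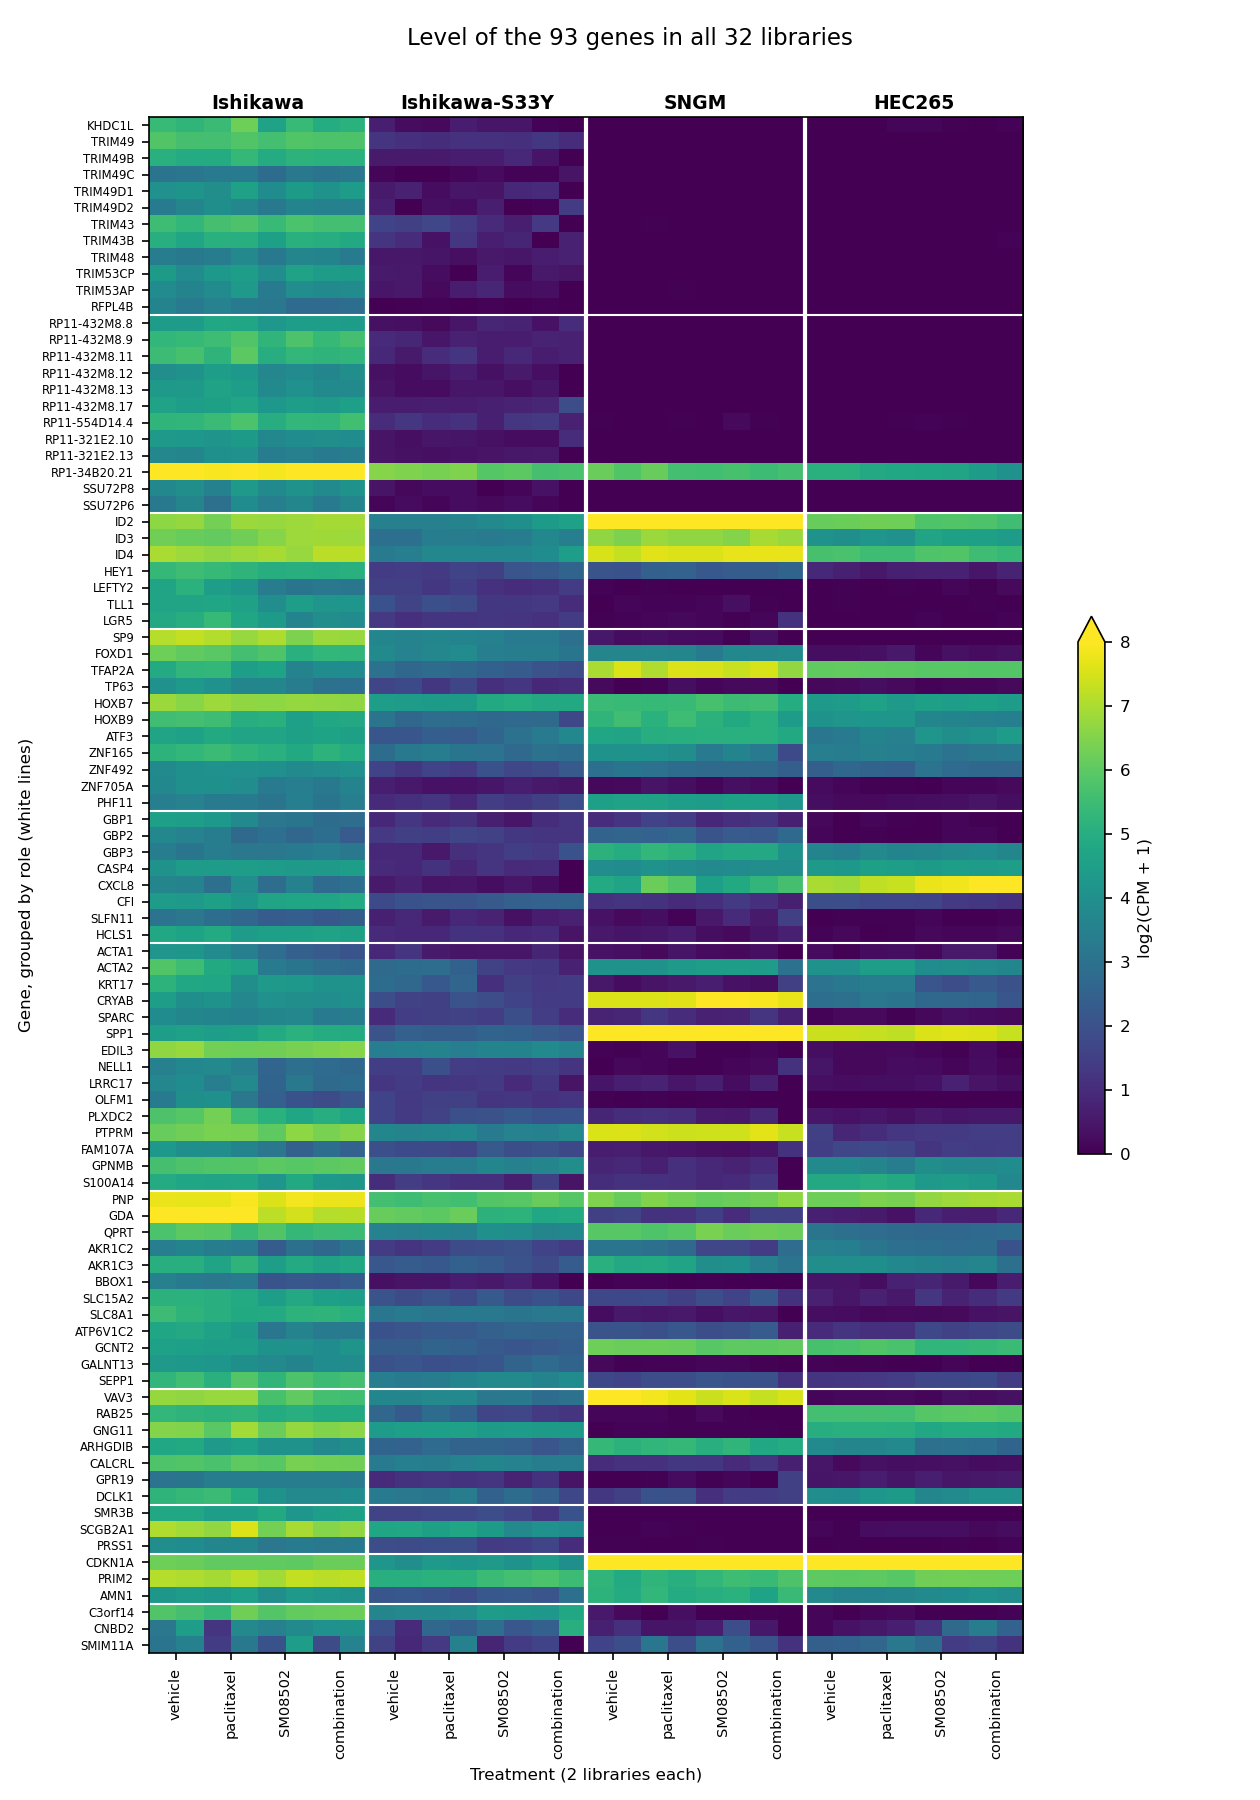
Level of each of the 93 genes (rows, grouped by role) in all 32 libraries (columns, 4 lines by 4 treatments, 2 libraries each); colour is log2(CPM + 1), with values of 8 and above in the brightest colour. The upper rows, embryonic and clone-named genes, are bright in Ishikawa, faint in Ishikawa-S33Y and dark in SNGM and HEC265 (except RP1-34B20.21), whereas rows such as ID2, CDKN1A and SPP1 are bright in SNGM as well.

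Genes of the cleavage-stage embryo were among those with the largest differences. KHDC1L, a KH-domain gene of oocytes and early embryos, measured 41.9 and 36.6 CPM in the Ishikawa vehicle libraries and 0.591 and 0.210 in those of Ishikawa-S33Y. In the 6 drug-treated libraries it ranged over 23.3 to 75.0 CPM (median 37.0) in Ishikawa and 0 to 0.516 CPM (median 0.274) in Ishikawa-S33Y (log2 -4.99, SE 0.13, adjusted p = 4.63e-18). The ranges did not overlap, and this was the largest drug-treated difference among the members.

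TRIM49, a tripartite-motif gene with several near-identical copies, was steady in Ishikawa, with 55.6 and 49.4 CPM on vehicle and 47.7 to 55.8 CPM (median 53.0) with drugs. In Ishikawa-S33Y it was 1.28 and 1.09 CPM on vehicle and 1.00 to 1.44 CPM (median 1.16) with drugs (log2 -4.61, SE 0.07, adjusted p = 2.24e-21). Its copies were low in the same line. TRIM49B was 29.0 to 39.5 CPM (median 33.6) against 0 to 0.839 CPM (median 0.512) in treated libraries, and TRIM49D1 was 13.8 to 22.9 CPM (median 17.9) against 0 to 0.925 CPM (median 0.381). TRIM43 was 44.6 and 37.9 CPM on vehicle in Ishikawa and 2.02 and 1.89 in Ishikawa-S33Y, and its neighbour TRIM43B 31.3 and 25.3 and 1.33 and 1.01. TRIM48 was lower, at 9.37 and 8.44 CPM in Ishikawa and 0.444 and 0.419 in Ishikawa-S33Y. RFPL4B, a finger-protein gene of the same embryonic set, had the lowest vehicle level in Ishikawa-S33Y among these genes, with 11.1 and 8.83 CPM against 0 and 0.0419. Reads of such copies can be shared among them in counting, so the split between copies is uncertain.

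None of the TRIM genes, KHDC1L or RFPL4B had a read in the vehicle libraries of SNGM or HEC265, where 3 reads over the group correspond to 0.0458 and 0.0620 CPM. In Ishikawa-S33Y the floor is 0.0680 CPM, and the vehicle means of RFPL4B and TRIM49C lay below it. For the other 10 of these genes the order of vehicle levels was Ishikawa, then Ishikawa-S33Y, then SNGM and HEC265 with 0 reads each. With drugs, 10 of the 12 genes were called higher in Ishikawa-S33Y than in SNGM and 9 than in HEC265. Over all genes tested these shares were 43.1% and 40.7%. The calls set low levels in Ishikawa-S33Y against lines with few or no reads.

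**Figure D2:**
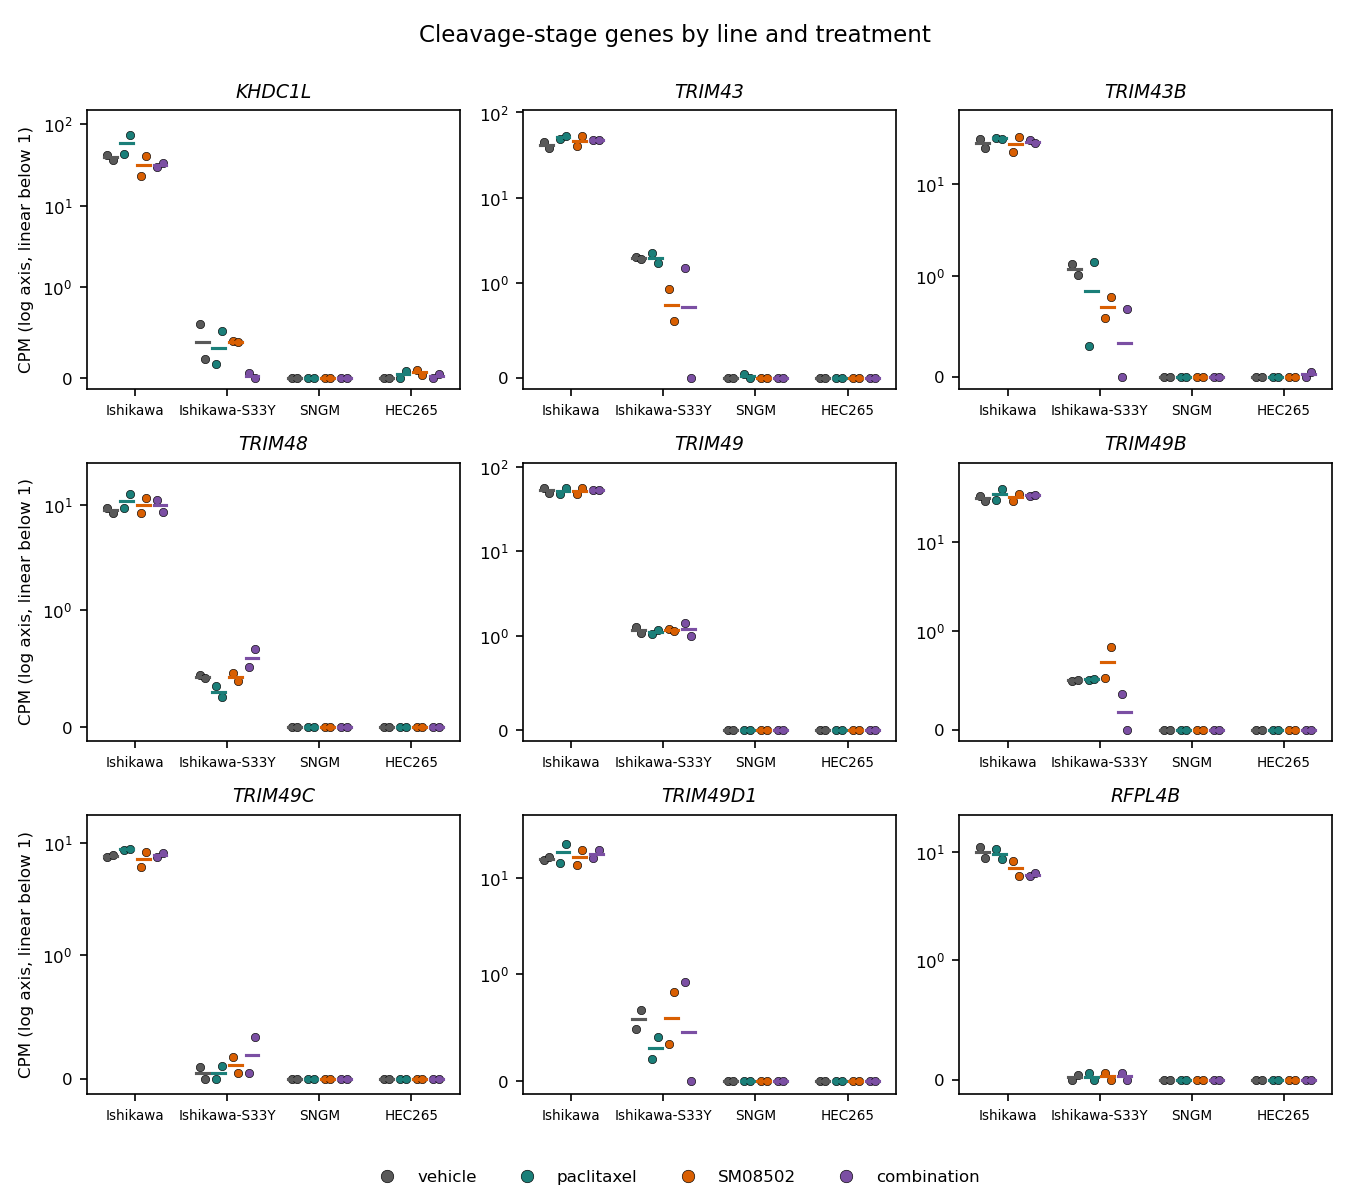
CPM of 9 cleavage-stage genes in each library (dots) with group means (bars), by line and treatment, on a log axis that is linear below 1. All Ishikawa dots lie above all Ishikawa-S33Y dots in the 9 panels, and SNGM and HEC265 lie at or close to 0.

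The wider set of DUX4-induced and cleavage-stage genes, a list of 34 of which 26 could be tested, had 24 genes lower and 1 higher in drug-treated Ishikawa-S33Y, with a median log2 difference of -1.56. Leaving out the 9 that are members, 15 of 17 were lower and 1 higher, where 35.5% of all genes tested were lower and 34.1% higher. The filter on low values can admit a gene through its level in Ishikawa alone, and such a gene tends to be called lower in Ishikawa-S33Y. The lists were also chosen with earlier results of these data known, so the list counts are a description. ZSCAN4, on the same list, measured 5.80 ± 0.169 CPM in Ishikawa and 0.513 ± 0.251 in Ishikawa-S33Y on vehicle (n = 2), and was lower with drugs (log2 -1.94, SE 0.12, adjusted p = 5.46e-12). The histone demethylase gene KDM4E (log2 -2.004, SE 0.09, adjusted p = 6.59e-14), RFPL4A (log2 -2.69, SE 0.09, adjusted p = 9.77e-16), MBD3L2 (log2 -1.80, SE 0.08, adjusted p = 5.37e-14) and the homeobox gene LEUTX (log2 -1.29, SE 0.10, adjusted p = 3.39e-10) were lower as well. The exceptions were SLC34A2, a phosphate transporter that is also an epithelial gene, which was higher (log2 1.88, SE 0.13, adjusted p = 6.21e-11), and ZNF280A, which did not pass the test (log2 -0.04, SE 0.11, adjusted p = 0.779). DUX4 itself was at 0.177 ± 0.0756 CPM in Ishikawa and 0.0838 ± 0.119 in Ishikawa-S33Y on vehicle (n = 2) and was too low to be tested. Some other lists were mostly lower in drug-treated Ishikawa-S33Y too. They include 13 of 17 cancer-testis and germline genes (2 higher) and 60 of 77 ribosomal protein genes (5 higher).

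Of the 93 genes, 83 matched a RefSeq gene of GRCh38.p14 (80 protein-coding genes and 3 pseudogenes), and 10 have clone-based names that did not match. Chromosome 11 held 14 of the matched genes (16.9%), against 5.55% of tested genes, and 8 of these 14 are TRIM genes or pseudogenes. TRIM49, TRIM49D1, TRIM49D2, TRIM53AP and TRIM49C lie within chr11:89766451-90073531, and TRIM53CP and TRIM49B within chr11:48985753-49038155. Other neighbours within 500 kb were GBP3, GBP1 and GBP2 on chromosome 1, AKR1C2 and AKR1C3 on 10, HOXB7 and HOXB9 on 17, TRIM43B and TRIM43 on 2, HCLS1 and SLC15A2 on 3, and TFAP2A and GCNT2 on 6. Among the matched genes, 40 have a span, introns included, that overlaps the span of another RefSeq gene on either strand. Overlap of exons was not examined and the strandedness of counting is not known. How many of their reads could come from the overlapping gene is therefore not known, and the share of all genes tested with such an overlap was not counted.

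Promoter sequences from RefSeq (GRCh38.p14; 250 bases before to 50 after the start) were found for 64 of the 93 genes. They held few CpG dinucleotides, with a median of 4 in 300 bases against 14 over all 35116 promoters. The sequences of 3 TRIM promoters are shown because these genes were low together in Ishikawa-S33Y and share a motif. Searched on both strands, 1 form of the DUX4 motif, the letters in capitals below, was present in the promoters of TRIM48, TRIM49B, TRIM49D1, TRIM49D2 and SSU72P8 and in 0.057% of all promoters; this form was chosen after the sequences had been seen. Another form of the DUX4 motif was in 0 members and 0.0285% of all promoters, and the estrogen response element in 0 members and 0.057%. The 250 bases before the start are printed below 5′ to 3′ on the gene's strand, with the match in capitals.
TRIM48 at chr11:55261905-55262154, plus strand: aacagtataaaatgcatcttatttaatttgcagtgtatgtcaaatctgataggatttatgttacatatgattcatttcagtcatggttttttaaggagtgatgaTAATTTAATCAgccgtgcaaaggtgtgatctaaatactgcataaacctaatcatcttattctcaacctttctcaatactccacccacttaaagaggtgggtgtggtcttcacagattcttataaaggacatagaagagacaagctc
TRIM49B at chr11:49028573-49028822, plus strand: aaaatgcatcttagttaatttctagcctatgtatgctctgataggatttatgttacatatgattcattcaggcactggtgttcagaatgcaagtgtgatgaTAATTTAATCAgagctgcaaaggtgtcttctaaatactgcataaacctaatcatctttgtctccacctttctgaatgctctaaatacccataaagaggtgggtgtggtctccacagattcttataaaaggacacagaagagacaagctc
TRIM49D2 at chr11:89923814-89924063, plus strand: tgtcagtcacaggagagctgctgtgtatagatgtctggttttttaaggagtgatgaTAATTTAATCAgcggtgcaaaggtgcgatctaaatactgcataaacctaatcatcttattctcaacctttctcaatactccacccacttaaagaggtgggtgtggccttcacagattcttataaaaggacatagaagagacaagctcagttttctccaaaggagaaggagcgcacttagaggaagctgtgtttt
The match begins 146, 149 and 194 bases before the start of TRIM48, TRIM49B and TRIM49D2. Aligned locally over the 300-base windows, TRIM48 and TRIM49B were identical at 252 of 303 aligned positions, and TRIM48 and TRIM49D2 at 215 of 222. The TRIM49 and TRIM49C promoters were a near-identical pair of another kind, equal at 299 of 300 bases, and both hold the TCF/LEF core CTTTGAT, which is in 2.62% of all promoters and also in those of AKR1C3, CXCL8, DCLK1 and GALNT13. A match is a description of the letters in this window only.

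The clone-named genes and SSU72-family copies followed the TRIM genes in level. RP11-432M8.11 measured 44.1 and 50.5 CPM on vehicle in Ishikawa and 0.887 and 0.503 in Ishikawa-S33Y, and RP11-432M8.9 37.9 and 40.5 and 0.936 and 0.797. Both were lower in drug-treated Ishikawa-S33Y (log2 -4.47, SE 0.11, and -4.89, SE 0.09). The RP11-432M8 names, of which 6 are members, share a clone name, and their positions were not matched here. RP11-432M8.8, RP11-432M8.13, RP11-432M8.17 and RP11-321E2.10 had vehicle differences of -4.08, -3.98, -3.92 and -3.91 in log2(CPM + 1), and RP11-554D14.4 of -4.12. Of the 24 genes in these first groups, 22 had 0 reads on vehicle in SNGM and 23 in HEC265, against 3 and 4 of the other 69 genes. RP1-34B20.21 was the exception in level: it was the most abundant member, with 474 and 433 CPM in Ishikawa, and 92.9 and 86.7 in Ishikawa-S33Y. SNGM still had 70.9 and 55.9 CPM of it, HEC265 32.8 and 32.7. The roles used here to order the genes were assigned after their values had been seen.

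The ID genes were a further family. ID2 measured 98.2 and 105 CPM on vehicle in Ishikawa and 10.2 and 10.1 in Ishikawa-S33Y, and with drugs 79.1 to 121 CPM (median 110.4) against 10.2 to 22.7 CPM (median 13.7) (log2 -2.81, SE 0.07, adjusted p = 2.97e-18). ID3 was 75.8 and 70.1 CPM against 6.51 and 6.54 on vehicle, and lower with drugs (log2 -3.14, SE 0.07, adjusted p = 6.35e-19). ID4 was 125 and 113 CPM against 9.12 and 9.81, and lower with drugs (log2 -3.05, SE 0.07, adjusted p = 1.4e-18). No treated library of Ishikawa-S33Y reached any Ishikawa library for these 3 genes. The remaining family gene, ID1, was no member and is named here after its values were seen: it measured 211 ± 9.27 CPM in Ishikawa and 114 ± 3.81 in Ishikawa-S33Y on vehicle (n = 2), and was lower with drugs (log2 -1.25, SE 0.06, adjusted p = 9.35e-14).

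These genes were not low in every CTNNB1-mutated line. In SNGM vehicle libraries ID2 was 336 and 299.9 CPM, ID3 100.6 and 84.6 and ID4 181 and 157, at or above the Ishikawa level. In HEC265 they were 69.6 and 72.5, 16.3 and 15.0 and 49.6 and 51.4 CPM, between Ishikawa and Ishikawa-S33Y. With drugs, ID2 was higher in SNGM than in Ishikawa (log2 1.45, SE 0.07, adjusted p = 2.02e-14) and lower in HEC265 than in Ishikawa (log2 -0.85, SE 0.07, adjusted p = 2.51e-10).

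HEY1, the Notch-induced repressor, measured 39.6 and 45.0 CPM in Ishikawa and 1.68 and 1.76 in Ishikawa-S33Y on vehicle, and was lower with drugs (log2 -3.20, SE 0.10, adjusted p = 1.63e-16). LEFTY2 was 24.7 and 33.2 CPM against 1.87 and 1.84, and TLL1, which encodes a protease that cleaves the BMP antagonist chordin, 24.4 and 24.6 against 3.06 and 2.14. LEFTY2 and TLL1 each averaged under 0.1 CPM on vehicle in SNGM and HEC265. The Wnt target LGR5 went the other way from most of its list. It measured 27.3 and 30.3 CPM in Ishikawa and 1.53 and 1.13 in Ishikawa-S33Y on vehicle, and 11.1 to 40.0 CPM (median 16.9) against 1.18 to 1.67 CPM (median 1.35) with drugs (log2 -3.07, SE 0.15, adjusted p = 1.47e-13). Of the 18 other Wnt targets tested, 13 were higher and 4 lower in drug-treated Ishikawa-S33Y, among them AXIN2 (log2 1.68, SE 0.10, adjusted p = 6.16e-12), NKD1 (log2 1.27, SE 0.19, adjusted p = 3.73e-06) and CCND1 (log2 1.92, SE 0.13, adjusted p = 2.21e-11), all 3 higher. BMP4, a BMP ligand on the same list, was higher too (log2 3.41, SE 0.13, adjusted p = 2.69e-15), at 1.83 ± 0.669 CPM in Ishikawa and 26.4 ± 0.994 in Ishikawa-S33Y on vehicle (n = 2).

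Transcription factors of other classes followed. SP9, a zinc-finger factor of limb and forebrain development, had the highest level among them, 137 and 153 CPM in Ishikawa against 11.6 and 10.9 in Ishikawa-S33Y on vehicle, and was lower with drugs (log2 -3.42, SE 0.10, adjusted p = 6.94e-17). The forkhead gene FOXD1 was 75.1 and 65.6 against 13.1 and 10.6 CPM, and TP63, the basal epithelial member of the p53 family, 15.4 and 19.3 against 2.22 and 2.47. The neighbouring homeobox genes HOXB7 and HOXB9 were 110.3 and 94.4 against 21.4 and 20.3 CPM and 46.1 and 48.1 against 7.49 and 5.28 CPM. TFAP2A, an epithelial AP-2 factor, was 28.7 and 37.5 CPM in Ishikawa and 6.95 and 5.41 in Ishikawa-S33Y, and lower with drugs (log2 -1.93, SE 0.17, adjusted p = 2.19e-09). It was the only member on the list of endometrial and Müllerian transcription factors. Of the 22 others tested 17 were higher and 1 lower in drug-treated Ishikawa-S33Y. ATF3, a stress-induced factor, was 24.2 and 22.9 against 3.45 and 3.44 CPM and lower with drugs (log2 -1.76, SE 0.09, adjusted p = 1.68e-13). Of the 20 other immediate early genes tested, 9 were lower and 6 higher. Zinc-finger genes gave 3 members of 533 tested, ZNF165, ZNF492 and ZNF705A, while 207 of the 533 were called lower with drugs and 159 higher.

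Guanylate-binding proteins are interferon-induced GTPases of cell-autonomous immunity, and GBP1, GBP2 and GBP3 are adjacent genes. GBP1 measured 21.6 and 21.0 CPM in Ishikawa and 0.887 and 1.38 in Ishikawa-S33Y on vehicle, and was lower with drugs (log2 -2.41, SE 0.10, adjusted p = 2.05e-14). GBP2 was 12.1 and 10.7 against 1.53 and 1.84 CPM and GBP3 9.31 and 7.68 against 0.838 and 0.838. In the other lines they parted: SNGM had 34.5 and 29.7 CPM of GBP3 and 1.02 and 1.35 of GBP1, and HEC265 11.2 and 10.0 and 0.134 and 0. The GBP genes were not on the list of interferon-stimulated genes, of which 16 of 26 tested were lower in drug-treated Ishikawa-S33Y and 3 higher, none of them a member. ISG15 (log2 -1.68, SE 0.15, adjusted p = 1.68e-09) and IFIT1 (log2 -1.15, SE 0.11, adjusted p = 6.37e-09) were among those lower. The promoter of GBP1 is shown because it holds the core of the interferon response element, in capitals below, 127 bases before the start; 3.57% of all promoters hold it on either strand, as do those of the members GBP3, ACTA2 and GNG11.
GBP1 at chr1:89065209-89065458, minus strand: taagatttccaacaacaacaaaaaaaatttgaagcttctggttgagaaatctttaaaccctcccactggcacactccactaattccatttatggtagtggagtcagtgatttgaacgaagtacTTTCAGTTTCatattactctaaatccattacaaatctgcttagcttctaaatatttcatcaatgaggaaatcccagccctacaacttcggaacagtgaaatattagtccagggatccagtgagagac

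CASP4, an inflammatory caspase that senses bacterial lipopolysaccharide, was lower in Ishikawa-S33Y than in each of the other lines. It measured 15.8 and 20.1 CPM on vehicle in Ishikawa but 0.936 and 0.880 in Ishikawa-S33Y. Vehicle libraries of SNGM had 14.2 and 13.7 CPM and those of HEC265 18.9 and 18.1. With drugs it was lower in Ishikawa-S33Y than in Ishikawa (log2 -3.52, SE 0.12, adjusted p = 7.38e-16), than in SNGM (log2 -3.05, SE 0.12, adjusted p = 5.92e-16) and than in HEC265 (log2 -3.59, SE 0.12, adjusted p = 3.11e-17). CXCL8, a chemokine for neutrophils, was 11.5 and 10.9 CPM in Ishikawa and 0.493 and 0.671 in Ishikawa-S33Y, but 28.7 and 24.2 in SNGM and 126 and 118 in HEC265. Its list of NF-kappaB and cytokine genes had 5 lower and 2 higher among the 21 others tested. HCLS1, a cortactin-like adaptor best known in blood cells, was 27.1 and 23.9 against 0.986 and 0.880 CPM. The complement protease gene CFI was 19.9 and 18.5 against 2.46 and 3.06 CPM, and SLFN11, an interferon-regulated gene that halts stressed replication forks, 7.34 and 8.06 against 0.641 and 0.880.

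**Figure D3:**
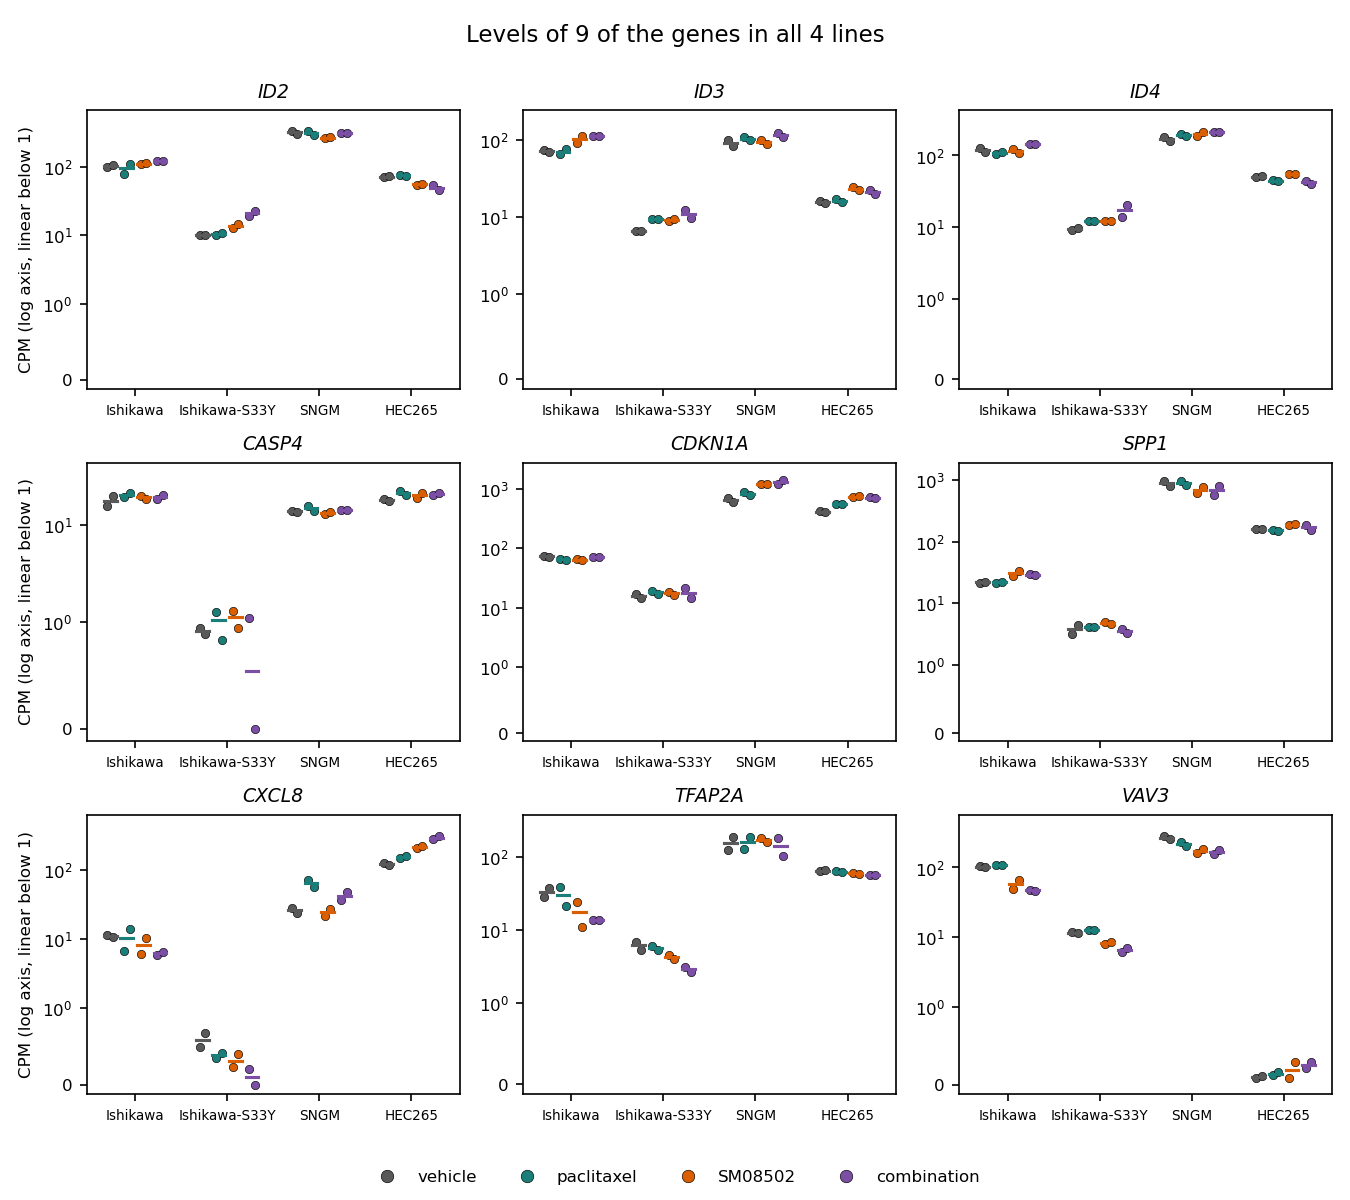
CPM of 9 genes in each library (dots) with group means (bars), by line and treatment, on a log axis that is linear below 1. Ishikawa-S33Y is the lowest of the 4 lines in each panel except VAV3, where HEC265 is near 0, and on vehicle SNGM or HEC265 reaches or passes the Ishikawa mean for all 9 genes.

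Structural and matrix genes followed. ACTA2, smooth muscle actin, was 55.6 and 45.0 CPM in Ishikawa and 5.86 and 6.08 in Ishikawa-S33Y on vehicle. With drugs it ranged over 5.60 to 28.0 CPM (median 8.28) against 0.669 to 6.24 CPM (median 1.73), and these ranges overlapped, with the overall difference called (log2 -1.87, SE 0.16, adjusted p = 1.01e-09). ACTA1, skeletal muscle actin, was 17.1 and 17.8 against 0.838 and 1.34 CPM. The adhesion gene EDIL3, an integrin ligand, was the most abundant of the matrix genes, at 100.9 and 109 CPM against 9.61 and 10.5, and PLXDC2, a membrane protein, had the largest vehicle difference of that role, 53.8 and 58.5 against 2.02 and 1.59 CPM. SPARC, a matrix glycoprotein, was 13.9 and 11.7 against 0.936 and 1.72 CPM and lower with drugs (log2 -2.04, SE 0.11, adjusted p = 1.17e-12). SPARC and ACTA2 are the members on the list of mesenchymal genes, whose 14 other tested genes had 4 lower and 8 higher. SPP1 (osteopontin) was 21.6 and 22.6 against 3.15 and 4.44 CPM, and lower with drugs (log2 -2.45, SE 0.08, adjusted p = 8e-16). The other extracellular matrix and adhesion genes on a list of 32 gave 4 lower and 23 higher, with no member among them.

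Enzymes, carriers and secreted proteins made up much of the abundant end of the group. PNP, the purine nucleoside phosphorylase that splits inosine and guanosine, was 218 and 207 CPM against 47.7 and 44.9, and lower with drugs (log2 -1.93, SE 0.07, adjusted p = 3.07e-15). GDA, guanine deaminase, acts on the guanine that PNP releases, and measured 316 and 311 against 69.9 and 65.9 CPM (log2 -2.16, SE 0.08, adjusted p = 3.07e-15). Both enzymes were low in Ishikawa-S33Y, while in SNGM PNP was 87.5 and 70.0 CPM and GDA 1.85 and 2.14, and in HEC265 74.3 and 74.8 and 0.623 and 0.541. AKR1C2 and AKR1C3, aldo-keto reductases that act on steroid hormones and are similar enough to share reads, were 9.68 and 11.1 against 1.63 and 1.34 CPM and 31.8 and 31.9 against 3.499 and 3.98. SCGB2A1, a secretoglobin of glandular epithelium, was 132 and 117 against 24.9 and 27.0 CPM and at most 0.236 CPM in every treated library of SNGM and HEC265. On the list of secretory epithelium genes, 6 of the 17 others tested were lower and 5 higher. The signalling genes VAV3 and RAB25, an epithelial GTPase of endosome recycling, were 105 and 100.6 against 11.8 and 11.4 CPM and 38.0 and 36.2 against 5.17 and 3.82 CPM.

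CDKN1A (p21), an inhibitor of cyclin-dependent kinases and a p53 target, was 74.4 and 71.9 CPM in Ishikawa and 17.1 and 14.6 in Ishikawa-S33Y, and lower with drugs (log2 -1.86, SE 0.07, adjusted p = 4.84e-15). PRIM2, a primase subunit with a near-identical copy, was 136 and 132 against 31.3 and 32.2 CPM.

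A pair of members varied widely. CNBD2 measured 8.08 and 21.5 CPM in the Ishikawa vehicle libraries, far apart, and 2.86 and 0.922 in Ishikawa-S33Y; with drugs the ranges of 1.30 to 15.8 CPM (median 12.8) and 3.51 to 31.1 CPM (median 5.00) overlapped, and it was the member not called (log2 -0.44, SE 0.42, adjusted p = 0.367). SMIM11A varied from 1.62 to 21.2 CPM (median 5.75) in treated Ishikawa and 0 to 10.5 CPM (median 1.58) in treated Ishikawa-S33Y, and though called on the mean (log2 -1.30, SE 0.46, adjusted p = 0.016) it was not called with paclitaxel or with the combination alone. The smallest called differences in the drug-treated mean were those of FAM107A (log2 -1.21, SE 0.13, adjusted p = 4.09e-08), an actin-associated protein, and of ATP6V1C2 (log2 -1.26, SE 0.16, adjusted p = 6.79e-07), a proton pump subunit.

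Most of the 93 genes were low in SNGM and HEC265 as well, and a minority were higher there than in Ishikawa. With drugs, 73 were lower and 18 higher in SNGM than in Ishikawa, where 45.7% of all genes tested were lower and 33.4% higher. In HEC265 81 were lower and 8 higher (45.4% and 33.6% of all genes tested). Both comparisons use the same Ishikawa libraries, and the rule required a high level in Ishikawa. Set against Ishikawa-S33Y, which was chosen to be low, 28 genes were lower and 53 higher in Ishikawa-S33Y than in SNGM (32.5% and 43.1% of all genes tested), and 26 lower and 57 higher than in HEC265 (34.4% and 40.7%). On vehicle, SNGM had 25 genes with 0 reads and 52 under 1 CPM, and HEC265 27 and 56. The vehicle level was at or above that of Ishikawa for 17 genes in SNGM and 8 in HEC265.

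The members most abundant in SNGM were SPP1 (979 and 818 CPM), CDKN1A (710.4 and 607), ID2, VAV3 (282 and 254) and CRYAB, a small heat-shock protein (192 and 188). In HEC265 they were CDKN1A (429 and 404 CPM), SPP1 (163 and 165), CXCL8, PNP and ID2. With drugs SPP1 was higher than in Ishikawa in SNGM (log2 4.74, SE 0.08, adjusted p = 3.71e-22) and in HEC265 (log2 2.62, SE 0.08, adjusted p = 1.57e-17), as was CDKN1A (log2 3.998, SE 0.07, adjusted p = 4.46e-22, and log2 3.28, SE 0.07, adjusted p = 1.52e-20). VAV3 split these lines, with 0.0890 and 0.116 CPM in HEC265, and RAB25 split them the other way, with 0.0958 and 0.0879 CPM in SNGM and 47.7 and 48.1 in HEC265. TFAP2A was 127 and 187 CPM in SNGM and 64.6 and 66.4 in HEC265, higher than in Ishikawa in both with drugs (log2 2.98, SE 0.17, adjusted p = 4.16e-13, and log2 1.63, SE 0.17, adjusted p = 1.43e-08).

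Calls for SM08502 alone in SNGM and HEC265 were about as rare among these genes as among all genes tested, or rarer. In SNGM 3 fell and 2 rose against vehicle, where 4.06% and 3.8% of all genes tested fell and rose. In HEC265 4 fell and 5 rose, where 5.39% and 9.27% of all genes did. The median difference was 0 in both lines, where 52 and 56 of the members were under 1 CPM on vehicle. Leaving out replicate 1 of SM08502 or of vehicle left 1 call in SNGM, leaving out either replicate 2 left 3, and a fit to SNGM libraries alone left 0. In HEC265 leaving out replicate 2 of SM08502 left 4 calls and replicate 2 of vehicle left 3. CDKN1A in both lines and ATF3 and ARHGDIB in HEC265 stayed called whichever library of the compared groups was left out, and each other call was lost at least once.

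CDKN1A rose in both. In SNGM it went from 710.4 and 607 CPM on vehicle to 1202 and 1214 with SM08502 (log2 0.88, SE 0.13, adjusted p = 0.000129), and in HEC265 from 429 and 404 to 726 and 750.2 (log2 0.82, SE 0.13, adjusted p = 0.000128). The libraries did not overlap in either line. In SNGM CRYAB also rose (log2 0.61, SE 0.18, adjusted p = 0.0445). The falls there were AKR1C2 (log2 -1.38, SE 0.32, adjusted p = 0.0081), AKR1C3 (log2 -0.96, SE 0.22, adjusted p = 0.0085) and VAV3 (log2 -0.62, SE 0.12, adjusted p = 0.0026). AKR1C3 went from 32.95 and 27.5 to 14.6 and 15.3 CPM and AKR1C2 from 7.63 and 7.44 to 2.29 and 2.28.

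In HEC265 the chemokine gene CXCL8 rose from 126 and 118 to 214 and 224 CPM (log2 0.84, SE 0.23, adjusted p = 0.017) and ATF3 from 7.88 and 8.92 to 16.9 and 14.7 (log2 0.84, SE 0.15, adjusted p = 0.000527). ID3 (log2 0.55, SE 0.12, adjusted p = 0.0039) and PNP (log2 0.52, SE 0.13, adjusted p = 0.0073) rose less. KRT17, a keratin of stressed and basal epithelium, fell from 7.30 and 8.49 to 3.30 and 2.74 CPM (log2 -1.15, SE 0.28, adjusted p = 0.008), and ARHGDIB fell too (log2 -0.75, SE 0.14, adjusted p = 0.0011). GCNT2, which branches sugar chains (log2 -0.43, SE 0.10, adjusted p = 0.0057), and ID2 (log2 -0.36, SE 0.12, adjusted p = 0.0496) fell by less. Paclitaxel alone gave 0 calls among the members in SNGM and 0 in HEC265, where 0.0176% and 0.00588% of all genes tested were called higher; at an unadjusted p under 0.05 there were 7 and 2 of the 93 members, beside 300 and 158 of the 17011 genes tested, and limma voom on recovered reads called 1 and 0.

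**Figure D4:**
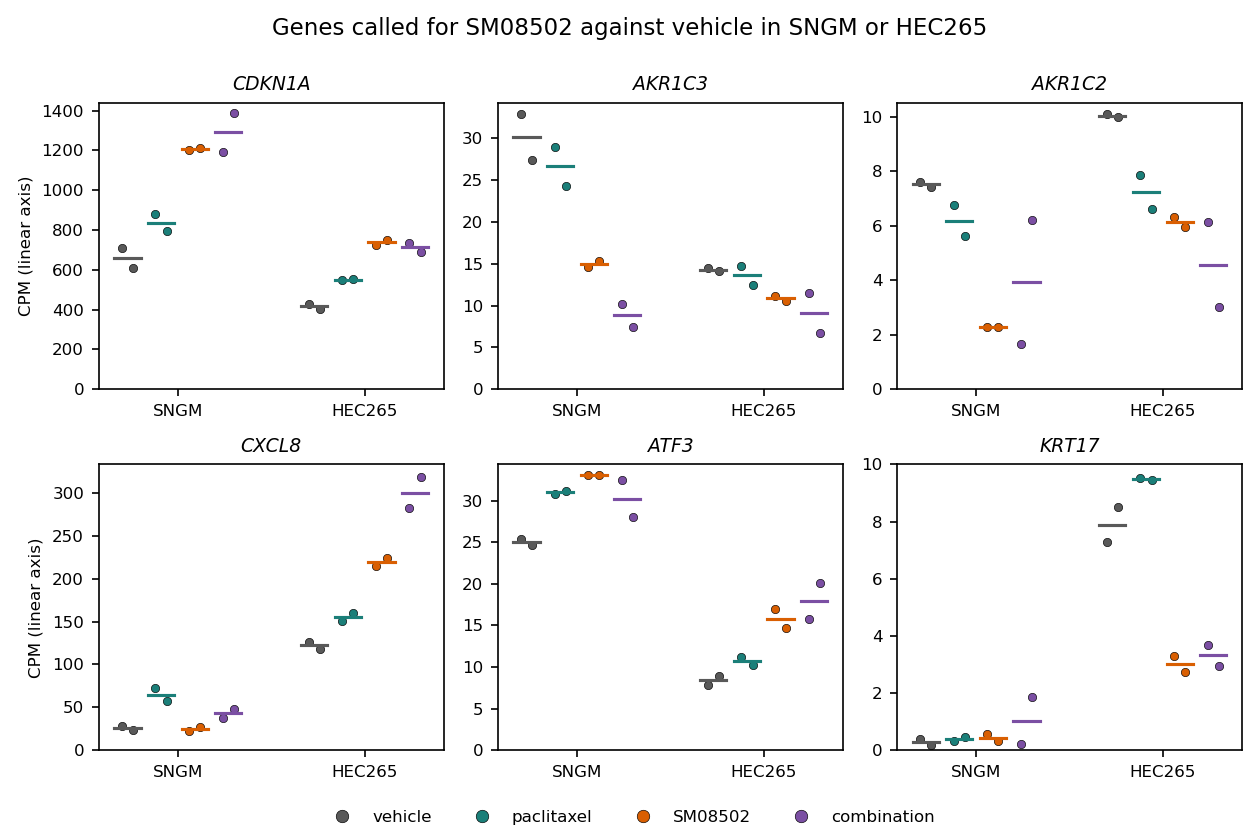
CPM (linear axes from 0) of 6 genes in SNGM and HEC265, with each library as a dot and group means as bars, by treatment. SM08502 and combination libraries lie above vehicle for CDKN1A in both lines and below vehicle for AKR1C3 in both, and CXCL8, ATF3 and KRT17 move in HEC265.

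In Ishikawa and Ishikawa-S33Y, SM08502 against vehicle uses the libraries that chose the genes, so its values are a description. The median difference was -0.28 in Ishikawa, with 73 of the 93 genes below 0, and 0.01 in Ishikawa-S33Y, with 45 below 0. Over all genes tested the medians were 0.002 and 0.11, and the share below 0 was not counted. Choosing genes by high Ishikawa and low Ishikawa-S33Y vehicle values tends to move these differences down in Ishikawa and up in Ishikawa-S33Y. ACTA2 went from 55.6 and 45.0 CPM to 8.96 and 7.60 in Ishikawa, GDA from 316 and 311 to 147 and 174, VAV3 from 105 and 100.6 to 49.8 and 65.4 and LEFTY2 from 24.7 and 33.2 to 9.19 and 7.72. TRIM49 and CASP4 stayed near their vehicle levels, at 47.7 and 55.8 and 20.1 and 18.9 CPM. In Ishikawa-S33Y with SM08502, ID2 was 12.7 and 14.7 CPM, HEY1 1.87 and 3.31 and LGR5 1.40 and 1.33.

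The combination against paclitaxel measures the same drug without those libraries. In Ishikawa 27 members fell and 3 rose, where 6.14% and 8.3% of all genes tested fell and rose; the median difference was -0.23 for the members and 0.01 for all genes. The falls were led by ACTA2, which went from 28.0 and 23.4 CPM with paclitaxel to 6.29 and 5.60 with the combination (log2 -1.94, SE 0.27, adjusted p = 0.000103). OLFM1, a secreted olfactomedin known in the endometrium, went from 15.2 and 8.09 to 2.63 and 3.36 CPM (log2 -1.61, SE 0.21, adjusted p = 5.79e-05), and ACTA1 from 13.5 and 9.90 to 3.91 and 3.21 (log2 -1.47, SE 0.20, adjusted p = 8.65e-05). In each of these 3 both combination libraries lay below both paclitaxel libraries. The rises were ID3 (log2 0.67, SE 0.12, adjusted p = 0.0012), ID4 (log2 0.40, SE 0.12, adjusted p = 0.0337) and ID2 (log2 0.37, SE 0.12, adjusted p = 0.0452). Of these, ID3 kept its call whichever library was left out. ID2 differed by 0.14 (limma adjusted p = 0.536) without replicate 1 of paclitaxel and lost its call without either combination library too, as did ID4.

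Further falls in Ishikawa were those of DCLK1, a microtubule-binding kinase (-1.37, SE 0.20), VAV3 (-1.18, SE 0.12), LEFTY2 (-1.17, SE 0.15), GBP1 (-1.17, SE 0.18), LGR5 (-1.15, SE 0.25), PLXDC2 (-1.07, SE 0.24), TFAP2A (-1.01, SE 0.30) and TP63 (-0.90, SE 0.16), as log2 differences. KHDC1L (-0.82, SE 0.22) and RFPL4B (-0.56, SE 0.13) fell too, but none of the 10 TRIM members was called, and TRIM49 differed by 0.04 (SE 0.13). Single paclitaxel libraries moved some of these falls: without replicate 1, PLXDC2 was -0.68 (limma adjusted p = 0.11) and TFAP2A -0.61 (limma adjusted p = 0.293), and without replicate 2 KHDC1L was -0.43 (limma adjusted p = 0.174). LGR5 and RFPL4B also lost their calls when single libraries were left out. In all, 13 of the 30 called members, ACTA2, OLFM1, ACTA1, DCLK1, VAV3, LEFTY2, GBP1, TP63 and ID3 among them, stayed called whichever library of the compared groups was left out. A fit to Ishikawa alone called 1 member, and the full fit called 16 without replicate 1 of the combination and 18 without replicate 2. The length scores of the Ishikawa paclitaxel libraries were -2.06 and -3.62, and without replicate 2 of paclitaxel and of SM08502 together 35 members were called.

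The promoter of ACTA1 is shown because it holds a CArG box, the site of serum response factor, in capitals 97 bases before the start. CArG boxes are in 1.29% of all promoters, and among members also in those of ARHGDIB and GBP1. The ACTA2 promoter held no match in the window searched.
ACTA1 at chr1:229434095-229434344, minus strand: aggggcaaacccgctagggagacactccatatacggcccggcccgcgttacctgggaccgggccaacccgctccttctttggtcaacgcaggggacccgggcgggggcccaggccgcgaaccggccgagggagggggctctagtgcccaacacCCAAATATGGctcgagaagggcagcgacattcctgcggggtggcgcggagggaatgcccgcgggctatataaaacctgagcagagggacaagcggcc

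In Ishikawa-S33Y 17 members fell and 14 rose with the combination against paclitaxel, where 17.4% and 22.1% of all genes tested fell and rose, so the shares of members (17 and 14 of 93) were near those of all genes. ACTA2 (log2 -1.65, SE 0.27, adjusted p = 6.83e-05), RAB25 (log2 -1.37, SE 0.13, adjusted p = 1.09e-07) and GDA (log2 -1.27, SE 0.14, adjusted p = 7.82e-07) fell most among those called. RAB25 went from 6.09 and 4.59 to 1.54 and 1.34 CPM, a further loss in a line where it was already low. ATF3 rose from 4.21 and 3.92 to 9.09 and 12.4 CPM (log2 1.20, SE 0.15, adjusted p = 2.57e-06), HEY1 from 1.57 and 2.12 to 3.85 and 5.01 (log2 0.93, SE 0.17, adjusted p = 0.000244) and ID2 from 10.2 and 10.9 to 19.3 and 22.7 (log2 0.93, SE 0.12, adjusted p = 4.77e-06). These rises left each gene below its Ishikawa level, where the combination libraries had 23.9 and 22.6, 30.8 and 32.5 and 121 and 119.8 CPM. Of the falls, 10 genes were called in both lines (10 of 27 in Ishikawa and 10 of 17 in Ishikawa-S33Y). Of the rises, 2 genes were, ID2 and ID4. The share of all genes tested that was called in both lines was not counted, so this overlap is a description. Without the shallow replicate 2 the ID4 rise in Ishikawa-S33Y was 0.17 (limma adjusted p = 0.285). Of the 31 called members, 11 stayed called whichever library was left out, among them ACTA2, RAB25, GDA, ATF3, HEY1 and ID2. Without the shallow replicate 2 of the combination 17 members were called in all, and without replicate 2 of paclitaxel 19.

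**Figure D5:**
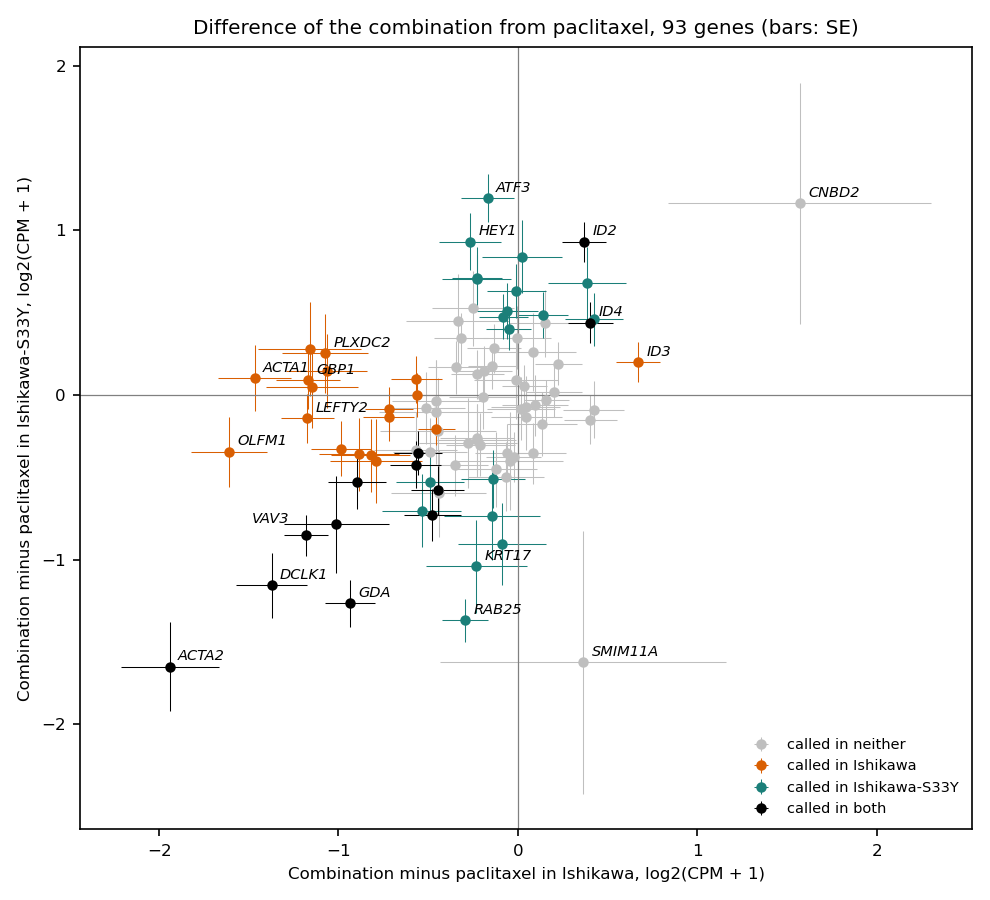
Difference of the combination from paclitaxel in log2(CPM + 1) for the 93 genes, in Ishikawa (horizontal) and Ishikawa-S33Y (vertical), with SE bars; colour marks in which line a gene was called. ACTA2, DCLK1, VAV3 and GDA lie low in both lines, ACTA1, OLFM1, GBP1 and PLXDC2 fell in Ishikawa without a call in Ishikawa-S33Y, and ATF3 and HEY1 were called higher in Ishikawa-S33Y.

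The effects of the combination against paclitaxel in both lines were also compared with each other. A lower effect in Ishikawa-S33Y was called for 1 member and a higher one for 15, where 4.83% and 4.47% of all genes tested were. The rule chose genes high in Ishikawa and low in Ishikawa-S33Y, where the log2(CPM + 1) scale compresses changes. A fall can therefore show in Ishikawa and hardly in Ishikawa-S33Y. How far the choice of genes sets the split of 15 to 1 was not tested. The count of 16 was 4 with a pseudocount of 0.1, 7 with limma voom and 8 in a fit to both lines alone, and 7 of the 16 stayed called whichever library was left out (RAB25, ACTA1, GBP1, LEFTY2, ATF3, HEY1 and GALNT13).

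In SNGM 5 members fell and 3 rose with the combination against paclitaxel (6.6% and 9.28% of all genes tested), and in HEC265 6 fell and 5 rose (6.53% and 8.39%). The SNGM count went to 22 without replicate 1 of the combination, to 5 without its shallow replicate 2 or without replicate 1 of paclitaxel, to 3 without replicate 2 of paclitaxel, and to 13 without replicate 2 of paclitaxel and of SM08502 in Ishikawa. In HEC265 it went to 2 without replicate 2 of the combination and to 5 without replicate 1 of paclitaxel.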

How the data were processed

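Values deposited by the authors are log10(CPM + 1) for 35238 genes in 32 libraries; bcl2fastq, kallisto, STAR and GRCh38 appear in the submitters' processing notes, and which program counted, the annotation and the strand are not given in the sources used here. Back-transformed CPM sum to 1000000, and 100% of values gave whole reads (tolerance 0.1), hence depth. Groups follow the labels' titles. Levels were tested as log2(CPM + 1), which understates changes of low genes, with limma 3.58.1 (R 4.3.3): 16 group means, empirical Bayes with trend, 16 residual degrees of freedom, prior 4.90, two-sided, Benjamini-Hochberg adjustment over 17011 genes, called under 0.05. The fit was first tested on simulated data. Members, gene lists and rules were chosen with earlier results of these data known. Genes were named as the members with the 12 largest vehicle differences, the 6 highest in Ishikawa, the 5 highest in SNGM and in HEC265, the 3 largest called rises and falls with SM08502 in SNGM and HEC265 or with the combination in Ishikawa, the 3 smallest drug-treated differences, members on lists, and those nearest the threshold; others were named after their values were seen. Alternatives were 2 filters, a pseudocount of 0.1, re-centring, quantile normalization, no trend, a fit to the compared lines, a replicate block, the length score, limma voom on recovered reads, and leaving out libraries. Splicing tables were not analysed here.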

Additional observations from a re-analysis of the deposited data

Results flagged for a closer look

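The effect of SM08502 on top of paclitaxel (combination minus paclitaxel) differed between Ishikawa-S33Y and Ishikawa for 16 members when the difference of the effects was itself tested (limma, adjusted p under 0.05), where 4.83% of all genes tested had a lower and 4.47% a higher effect in Ishikawa-S33Y. RAB25 fell further in Ishikawa-S33Y (log2 -1.07, SE 0.18, adjusted p = 0.0011). The other 15 had the higher value in Ishikawa-S33Y. ACTA1 (log2 1.57, SE 0.29, adjusted p = 0.0017), ATP6V1C2 (log2 1.44, SE 0.40, adjusted p = 0.0294), PLXDC2 (log2 1.33, SE 0.34, adjusted p = 0.0187), OLFM1 (log2 1.26, SE 0.30, adjusted p = 0.0116) and GBP1 (log2 1.26, SE 0.25, adjusted p = 0.0034) fell in Ishikawa and did not pass the test in Ishikawa-S33Y. So did FAM107A (log2 1.21, SE 0.32, adjusted p = 0.021), LGR5 (log2 1.20, SE 0.36, adjusted p = 0.0398), LEFTY2 (log2 1.03, SE 0.21, adjusted p = 0.0037), ZNF705A (log2 0.66, SE 0.20, adjusted p = 0.0414) and RP11-321E2.13 (log2 0.63, SE 0.19, adjusted p = 0.0393). ATF3 (log2 1.37, SE 0.21, adjusted p = 0.000488), HEY1 (log2 1.20, SE 0.25, adjusted p = 0.0043), GALNT13 (log2 0.94, SE 0.20, adjusted p = 0.0049), RP11-432M8.17 (log2 0.93, SE 0.28, adjusted p = 0.0368) and ID2 (log2 0.56, SE 0.17, adjusted p = 0.0417) rose in Ishikawa-S33Y. The RP11-432M8.17 rise was 0.20 (limma adjusted p = 0.289) without the shallow replicate 2 of the combination, and its difference between lines 0.43 (limma adjusted p = 0.143). The difference between lines was 0.33 (limma adjusted p = 0.122) for ID2 without replicate 2 of paclitaxel in Ishikawa, and 0.36 (limma adjusted p = 0.132) for RP11-321E2.13 without replicate 1 of the combination in Ishikawa-S33Y. The log2(CPM + 1) scale compresses changes of genes near 1 CPM, and the rule chose genes that are low in Ishikawa-S33Y. A fall can therefore show in Ishikawa and hardly in Ishikawa-S33Y. How far that choice sets the direction of these differences was not tested. ATP6V1C2, LGR5, FAM107A, ZNF705A, PLXDC2 and OLFM1 also lost their calls for the difference between lines when single libraries were left out. With a pseudocount of 0.1 the count of called members was 4. It was 8 or 9 without either paclitaxel replicate of Ishikawa-S33Y (8 without replicate 1, 9 without replicate 2), 9 without replicate 1 of paclitaxel in Ishikawa, and 9 without either combination replicate of Ishikawa.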

How the results depend on the processing

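The counts of members lower in drug-treated Ishikawa-S33Y than in Ishikawa stayed within 1.5 times of the reported ones except with a stricter filter (mean log2(CPM + 1) no lower than 2), which left 50 members to test. It gave 49 lower for the treatment mean, 48 under paclitaxel, 48 under SM08502, 49 under the combination, and 30 lower in SNGM and 38 in HEC265 than in Ishikawa. For the combination against paclitaxel this filter gave 12 members in Ishikawa and 6 for the difference between lines, and a pseudocount of 0.1 gave 13 and 4. Fitting the compared lines alone gave 0 members for SM08502 in SNGM and 19 in HEC265, 1 for the combination against paclitaxel in Ishikawa, 1 in SNGM and 22 in HEC265, and 8 for the difference between lines. The length score gave 10 for SM08502 in SNGM, 14 for the combination in SNGM, and 1 for paclitaxel in SNGM. Limma voom gave 8 for SM08502 in SNGM, 17 for the combination in Ishikawa-S33Y, 7 for the difference between lines and 1 for paclitaxel in SNGM. Without the shallow libraries the combination in HEC265 gave 17. The cause of these shifts was not tested.

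Leaving out libraries in turn gave 91 to 92 members lower in Ishikawa-S33Y than in Ishikawa for the treatment mean, 91 under paclitaxel, 89 to 91 under SM08502 and 90 to 92 under the combination. It gave 73 lower in SNGM and 80 to 81 in HEC265 than in Ishikawa, and 27 to 29 and 26 to 27 lower in Ishikawa-S33Y than in SNGM and HEC265. For SM08502 it gave 1 to 6 in SNGM and 3 to 10 in HEC265, and for the combination against paclitaxel 16 to 35 in Ishikawa, 17 to 37 in Ishikawa-S33Y, 3 to 22 in SNGM and 2 to 15 in HEC265. The difference between lines gave 8 to 23, paclitaxel 0 to 1 in SNGM and 0 in HEC265, and the rule itself chose 89 to 98 genes. Re-centring on medians chose 91 and a pseudocount of 0.1 chose 112. Over the named genes, 5842 alternative values held 0 of opposite sign where the main or the alternative value was called. Sign changes between values without a call were not counted. Among the same alternatives, 357 lost and 87 gained a call.

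The replicate numbers were not shown to pair the samples: same-numbered samples' deviations correlated at -0.54 to 0.85 in Ishikawa, -0.06 to 0.13 in Ishikawa-S33Y, -0.59 to 0.78 in SNGM and -0.12 to 0.26 in HEC265. With the replicate block, 92 members were lower for the treatment mean, 30 were called for the combination in Ishikawa, 31 in Ishikawa-S33Y, 12 in HEC265 and 14 for the difference between lines.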
